A study of Mus musculus with 8 samples.

Results

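The collagen genes described here were the protein-coding rows of the deposited expression table whose symbol consisted of Col, a type number, the letter a and a chain number. They numbered 44 of 29968 genes. Their transcripts were measured by poly-A RNA sequencing in 8 pancreatic tumors, 4 grown in WT mice (C57BL/6J) and 4 grown in mice null for complement C3 (C3-/-). All hosts were 12 weeks old and male, and all received 250000 KPC FC1245 cells in 50 μL of PBS into the tail of the pancreas, with an endpoint at day 14. KPC FC1245 is a cell line from a mouse pancreatic tumor with Trp53 R172H activated by Pdx-1-Cre, so every tumor of the study came from 1 line. The host was null for C3 in the C3-/- group, whereas the injected cells were the same in both groups. Host and tumor cells are both of mouse origin, and their collagen transcripts cannot be told apart in these files.

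Collagens are the main structural proteins of the extracellular matrix. Chains wind into a triple helix, which requires the small residue glycine at a regular spacing, and the helices then assemble into fibrils, sheets, beaded filaments or anchoring structures according to the type. Pancreatic tumors are known for a dense, collagen-rich stroma made largely by fibroblasts, while the sheet-forming collagens of basement membranes are made by epithelial, endothelial and mural cells as well.

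The regular glycine spacing can be read from the genes themselves. In the fibrillar genes many helix exons are 54 bases long, 18 codons, and begin with a whole glycine codon. The first such exon of the longest unbroken glycine run is printed here for the 3 most abundant chains and for a type V and a type XXVII chain that come up again in the comparisons, because they show what the class has in common. The sequences were taken from GRCm39 (mm39) with exon positions of GENCODE vM39, and capitals mark the glycine codons that open each triplet. Their places are chr11:94830730-94830783 on the plus strand (Col1a1, exon 8), chr6:4515481-4515534 on the plus strand (Col1a2, exon 8), chr1:45364520-45364573 on the plus strand (Col3a1, exon 6), chr1:45461546-45461599 on the minus strand (Col5a2, exon 10) and chr4:63163306-63163359 on the plus strand (Col27a1, exon 7).
Col1a1: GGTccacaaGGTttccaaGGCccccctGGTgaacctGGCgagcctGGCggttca
Col1a2: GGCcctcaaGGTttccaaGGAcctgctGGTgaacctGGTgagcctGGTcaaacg
Col3a1: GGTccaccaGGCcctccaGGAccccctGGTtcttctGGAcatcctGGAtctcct
Col5a2: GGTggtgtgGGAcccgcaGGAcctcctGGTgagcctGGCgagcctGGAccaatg
Col27a1: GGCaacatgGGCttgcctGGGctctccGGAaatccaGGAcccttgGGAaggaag

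Exons of exactly 54 bases numbered 21 in Col1a1, 24 each in Col1a2, Col3a1 and Col5a2, 31 each in Col11a1 and Col11a2, and 33 each in Col24a1 and Col27a1. The longest unbroken glycine run was 337 to 344 triplets in 9 of the 11 fibrillar genes, and 216 and 217 in Col24a1 and Col27a1. The 6 type IV genes of basement membranes had runs of 39 to 66 triplets and 1 to 3 such exons. The hexagonal network genes Col8a1, Col8a2 and Col10a1 had none of these exons. The other classes overlapped with these, with 2 to 3 such exons in the beaded filament genes, and with 28 in the FACIT gene Col22a1, more than in Col1a1.

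**Figure D1:**
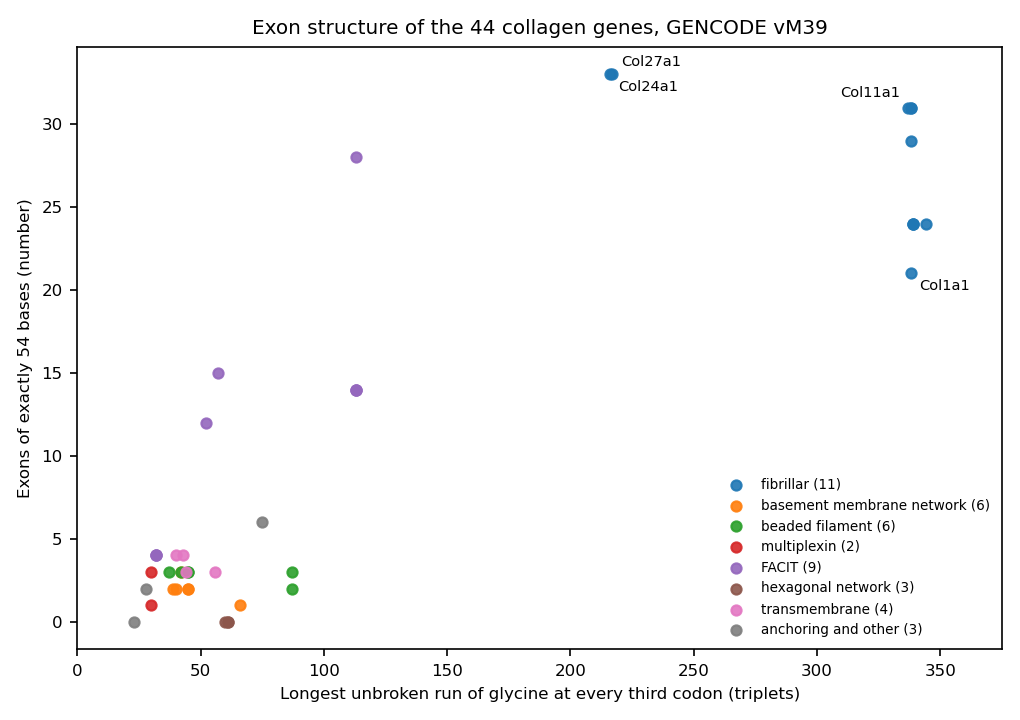
Gene structure of the 44 collagen genes. Each point is a gene, placed by the longest unbroken run of glycine codons at every 3rd codon (x axis, triplets) and by the number of exons of exactly 54 bases (y axis), and colored by class. The fibrillar genes stand at the right or top, with Col24a1 and Col27a1 at 33 such exons, and the type IV genes stand at the lower left with 1 to 3.

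Total counts were 13.3 to 23.4 M per tumor. Levels are given as the deposited FPKM, which are counts scaled by a size factor of each tumor and by gene length. C3, the gene removed from the hosts, had FPKM values of 40.7, 82.2, 43.4 and 62.3 in the WT tumors and of 21.0, 25.6, 19.4 and 19.3 in the C3-/- tumors. Every C3-/- tumor was below every WT tumor, and the C3-/- tumors still held 1591 to 2387 C3 counts. On the log2 scale the fold change of C3-/- over WT was -1.42 (SE 0.23, n = 4 and 4), with an adjusted p of 0.933 in edgeR's quasi-likelihood test and of 1.2e-05 in DESeq2. Tumors carried different amounts of other tissue. Summed FPKM of 11 skeletal muscle genes was 9.70 to 19.9 in WT 2, WT 3 and C3-/- 2 and 819 to 1980 in the other 5 tumors, summed FPKM of 13 acinar genes was 19.4 to 1967, and that of 7 adipocyte genes was 347 in WT 2 and 26.8 to 162 elsewhere.

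Of the 44 chains, 36 had at least 1 count in every tumor. Mean FPKM over the 8 tumors was 10 or more for 16 chains, from 1 to 10 for 8, and below 1 for 20. Fibrillar chains made up 67.2% of the summed collagen FPKM, basement membrane network chains 14.2%, beaded filament chains 8.42%, multiplexins 6.98%, FACIT chains, which bind to the surface of fibrils, 1.81%, and hexagonal network chains 1.12%. The 3 chains of types I and III alone accounted for 58.7%.

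Col1a1 (chr11:94827050-94843868) encodes the larger share of the type I fibril and was the most abundant chain. Its FPKM was 509, 778, 454 and 611 in WT tumors 1 to 4 and 564, 261, 392 and 701 in C3-/- tumors 1 to 4. C3-/- 2 was lowest and WT 2 highest, and the groups overlapped. Col3a1 (chr1:45350698-45388866), whose type III fibrils mingle with type I in soft tissues, was next with 226, 292, 232 and 329 in WT and 274, 135, 200 and 331 in C3-/-. C3-/- 2 was again lowest, and the highest tumor of each genotype was replicate 4. Col1a2, the partner of Col1a1, came after them with 150, 201, 134 and 200 in WT and 164, 85.7, 125 and 220 in C3-/-. The levels of Col1a1 exceeded those of Col3a1 in each tumor, and those of Col3a1 exceeded those of Col1a2.

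The type V chains, which are incorporated in type I fibrils and limit their width, followed at a lower level. Mean FPKM in WT and C3-/- was 58.9 ± 12.9 and 48.1 ± 13.1 for Col5a1, 46.3 ± 8.54 and 38.3 ± 9.06 for Col5a2, and 12.5 ± 1.87 and 10.6 ± 3.95 for Col5a3 (SD, n = 4). Col27a1, a fibrillar chain with a shorter helix, had 21.3 ± 5.23 and 30.3 ± 7.18. Col11a1, Col11a2 and Col24a1 lay between 0.254 and 4.73 in any tumor, and Col2a1, the fibrillar chain of cartilage, had at most 13 counts.

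Among basement membrane chains, Col4a1 (chr8:11248423-11362826) had an FPKM of 126, 152, 126 and 138 in WT and 117, 121, 110 and 156 in C3-/-. Its highest value was 1.42 times its lowest, whereas that ratio was 2.99 for Col1a1. C3-/- 2, the tumor lowest for types I and III, was not the lowest for Col4a1. Col4a2 stood at 95.6 ± 7.43 in WT and 87.2 ± 11.6 in C3-/- (SD, n = 4). Of the type IV chains of more restricted tissues, Col4a5 had 2.64 to 7.51, Col4a6 0.412 to 0.731, and Col4a3 and Col4a4 stayed below 0.112 in each tumor.

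Col6a1 (chr10:76544626-76562002), a chain of the beaded filaments that surround cells in most connective tissue, had 91.7, 88.3, 75.6 and 90.8 in WT and 79.1, 50.2, 74.5 and 90.1 in C3-/-. C3-/- 2 lay below the other 7 tumors. Col6a2 ranged from 19.1 to 42.6 and Col6a3 from 9.74 to 29.6. Col6a5 had 8 to 152 counts per tumor, and Col6a4 and Col6a6 were not tested for lack of counts. Col18a1 (chr10:76888012-77002382), a multiplexin of vessel basement membranes from which endostatin is cleaved, had 105, 85.9, 79.3 and 76.1 in WT and 88.9, 72.8, 73.5 and 72.5 in C3-/-. The other multiplexin, Col15a1, ranged from 22.8 to 39.7.

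The leading FACIT chain was Col12a1, with 13.8, 17.5, 9.04 and 21.2 in WT and 9.81, 14.7, 14.3 and 19.5 in C3-/-. Col14a1, another fibril-surface chain, had 9.01, 2.67, 3.02 and 7.80 in WT and 6.66, 2.76, 5.50 and 8.29 in C3-/-, so that WT 2, WT 3 and C3-/- 2 stood low together. The hexagonal network chain Col8a1, found in vessel walls, had 23.6, 6.86, 7.75 and 23.6 in WT and 15.6, 10.2, 15.3 and 20.2 in C3-/-. The same 3 tumors were lowest for it. Col7a1, which forms anchoring fibrils beneath epithelia, had 2.70, 3.76, 2.90 and 4.37 in WT and 2.31, 2.51, 2.95 and 2.69 in C3-/-. The leading transmembrane chain, Col23a1, had 1.15, 0.756, 0.572 and 0.835 in WT and 1.06, 0.347, 0.732 and 0.714 in C3-/-.

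**Figure D2:**
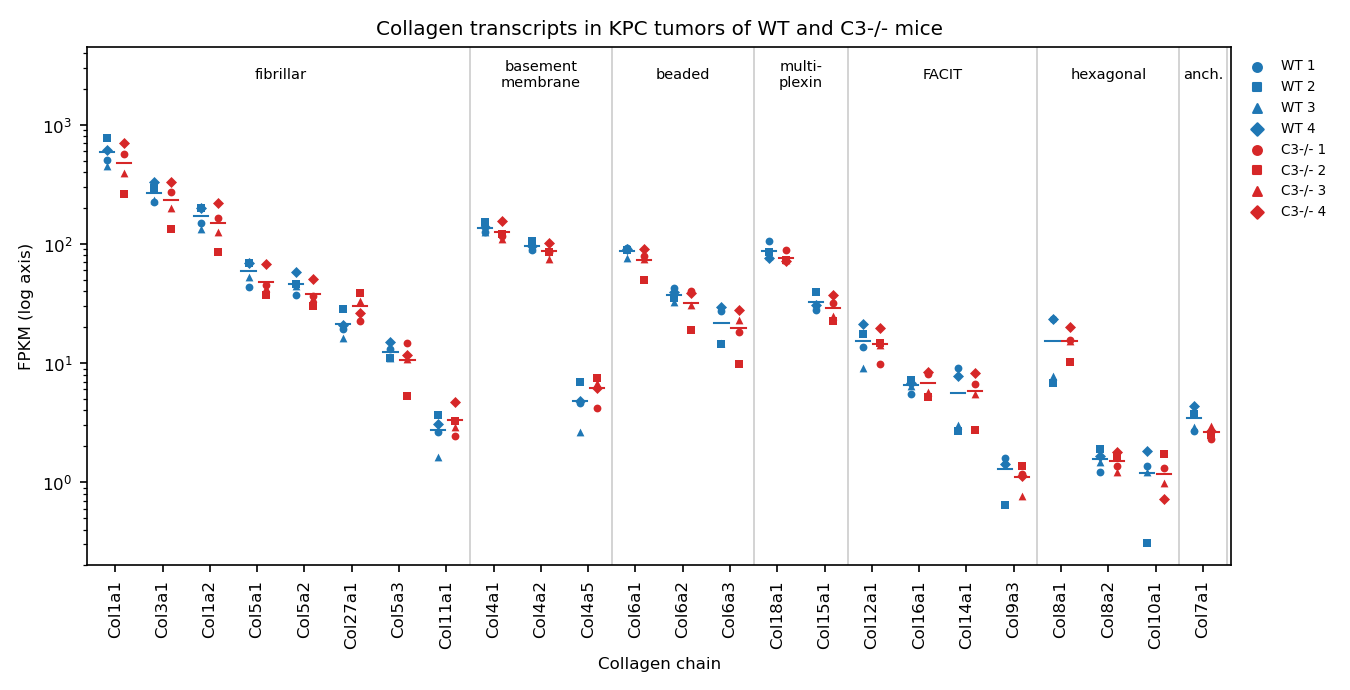
FPKM (y axis, log scale) of the 24 collagen chains with a mean of at least 1 FPKM, by class (x axis). Blue symbols are the 4 WT tumors and red symbols the 4 C3-/- tumors, the symbol shape gives the replicate number, and the short lines are the means of a genotype. Col1a1 spans 261 to 778 and Col4a1 110 to 156. The red square, C3-/- 2, is the lowest symbol for Col1a1, Col3a1, Col1a2, Col5a1, Col5a2, Col5a3, Col6a1, Col6a2, Col6a3, Col15a1 and Col16a1.

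Of the 44 chains, 34 had enough counts to be tested between genotypes. The remaining 10 were Col2a1, Col6a4, Col6a6, Col9a1, Col9a2, Col17a1, Col19a1, Col22a1, Col25a1 and Col26a1, none of which exceeded 29 counts in any tumor. A difference in those 10 was not detectable at this depth.

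The study asked how host C3 bears on these tumors, and the comparison of genotypes gave no collagen chain past the threshold. In edgeR's quasi-likelihood test, 0 of the 34 chains had an adjusted p below 0.05 (Benjamini-Hochberg over 16610 genes), beside 0.0% of all genes tested, and the smallest adjusted p of a chain was 0.960. DESeq2 called 0 of the chains as well, beside 0.0848% of the 18864 genes to which it gave an adjusted p, and its smallest adjusted p for a chain was 0.470. At an unadjusted p below 0.05 there were 5 chains, beside 5.11% of all genes, of which 3 were higher in C3-/- tumors, beside 3.03%, and 2 lower, beside 2.07%. In bulk tissue, fewer cells of a type and less RNA per cell cannot be told apart, and this holds for each value given here.

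The type I and III chains had log2 fold changes close to each other and within about 1 SE of 0. The value was -0.29 (SE 0.30) for Col1a1, -0.20 (SE 0.27) for Col1a2 and -0.19 (SE 0.27) for Col3a1, with unadjusted p of 0.356, 0.488 and 0.483 and adjusted p of 0.999 each in edgeR. Leaving out single tumors moved Col1a1 between -0.53 and -0.08 and Col3a1 between -0.41 and 0.00, the higher values being those without C3-/- 2. Col4a1 had -0.10 (SE 0.15), Col6a1 -0.23 (SE 0.18), Col18a1 -0.17 (SE 0.14), Col12a1 -0.07 (SE 0.27) and Col7a1 -0.39 (SE 0.18). In that order, single tumors left out gave -0.23 to -0.05, -0.35 to -0.09, -0.24 to -0.06, -0.26 to 0.13 and -0.49 to -0.25.

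The 5 chains of smallest p were all of low or moderate level. Col20a1, a little-studied FACIT chain (chr2:180628328-180660156), had counts of 43, 33, 23 and 52 in WT and 83, 80, 60 and 55 in C3-/-, or FPKM of 0.520, 0.480, 0.333 and 0.425 against 0.746, 0.859, 0.731 and 0.576. Every C3-/- tumor was above every WT tumor on FPKM. The difference was 0.73 on the log2 scale (SE 0.25), and edgeR gave it an unadjusted p of 0.0154 and an adjusted p of 0.960.

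Col11a2, a fibrillar chain best known from cartilage (chr17:34258411-34285659), had FPKM of 0.868, 0.587, 0.683 and 0.856 in WT and 1.43, 1.17, 0.957 and 1.03 in C3-/-. These groups did not overlap either. In edgeR the log2 fold change came to 0.62 (SE 0.22), with an unadjusted p at 0.0199 and the adjusted p at 0.964. Chains whose groups did not overlap thus numbered 2 of 34 in the higher direction, beside 2.28% of all genes, and 0 in the lower direction, beside 1.45%.

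Col27a1, a fibrillar chain of cartilage and other tissues (chr4:63132241-63253228), was the most abundant of the 5. It had FPKM of 19.2, 28.5, 16.3 and 21.0 in WT and 22.7, 38.8, 33.3 and 26.5 in C3-/-. WT 2 lay above C3-/- 1 and C3-/- 4, so the groups overlapped. A log2 fold change of 0.52 (SE 0.21) had an unadjusted p of 0.0349 in edgeR and an adjusted p of 0.971. Summed FPKM of 7 chondrocyte and tenocyte genes was 51.7 to 59.2 in WT and 53.7 to 65.4 in C3-/-, with Acan at 6.79 to 10.1 FPKM in WT and 4.91 to 7.97 in C3-/- and Sox9 at 31.2 to 35.5 and 34.7 to 46.9. Their part in these 3 chains was not tested.

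Col13a1, a transmembrane chain of cell adhesions (chr10:61674015-61814887), had counts of 25, 44, 17 and 60 in WT and 24, 24, 19 and 16 in C3-/-. Its FPKM values of 0.332, 0.703, 0.271 and 0.539 in WT stood beside 0.237, 0.283, 0.254 and 0.184 in C3-/-, with WT 3 inside the C3-/- range. The fitted log2 fold change of -0.94 (SE 0.37) had an unadjusted p of 0.0277 in edgeR, or 0.971 after adjustment. Col6a5, a beaded filament chain of restricted tissues (chr9:105733277-105837842), had counts of 32, 152, 22 and 88 in WT and 36, 39, 8 and 31 in C3-/-. WT 2 held more than the 4 C3-/- tumors together, and it was also the tumor with 347 summed FPKM of adipocyte genes. C3-/- 1, next highest for those genes at 162, held 36 Col6a5 counts, whereas WT 4, at 67.3, held 88. The fitted log2 fold change of -1.62 (SE 0.64) had an unadjusted p of 0.0302 in edgeR, or 0.971 after adjustment, and lay between -1.89 and -0.71 when single tumors were left out. The part of adipose tissue in it was not tested.

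Over the 34 chains, 24 had a negative log2 fold change, beside 50.0% of all genes tested, and the median was -0.12, beside 0.00 for all genes. The median was -0.01 without C3-/- 2 and between -0.23 and -0.07 without any other single tumor. By class, all 4 beaded filament chains were negative (-1.62 to -0.12), as were all 3 hexagonal network chains (-0.05 to -0.01), both multiplexins (-0.17 and -0.15) and both transmembrane chains (-0.94 and -0.21). These signs were not stable for every chain, since leaving out single tumors took Col6a3 up to 0.11, Col8a1 to 0.28, Col8a2 to 0.05, Col10a1 to 0.30 and Col23a1 to 0.016, and limma and the replicate block also gave Col8a1 (0.15 to 0.18) and Col10a1 (0.033 to 0.14) positive values, as did the acinar covariate (0.10 and 0.23). Fibrillar chains divided into 6 negative and 4 positive, basement membrane chains into 4 and 2, and FACIT chains into 2 and 3. Chains of a class come from the same 8 libraries, so these signs are a description and carry no test.

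**Figure D3:**
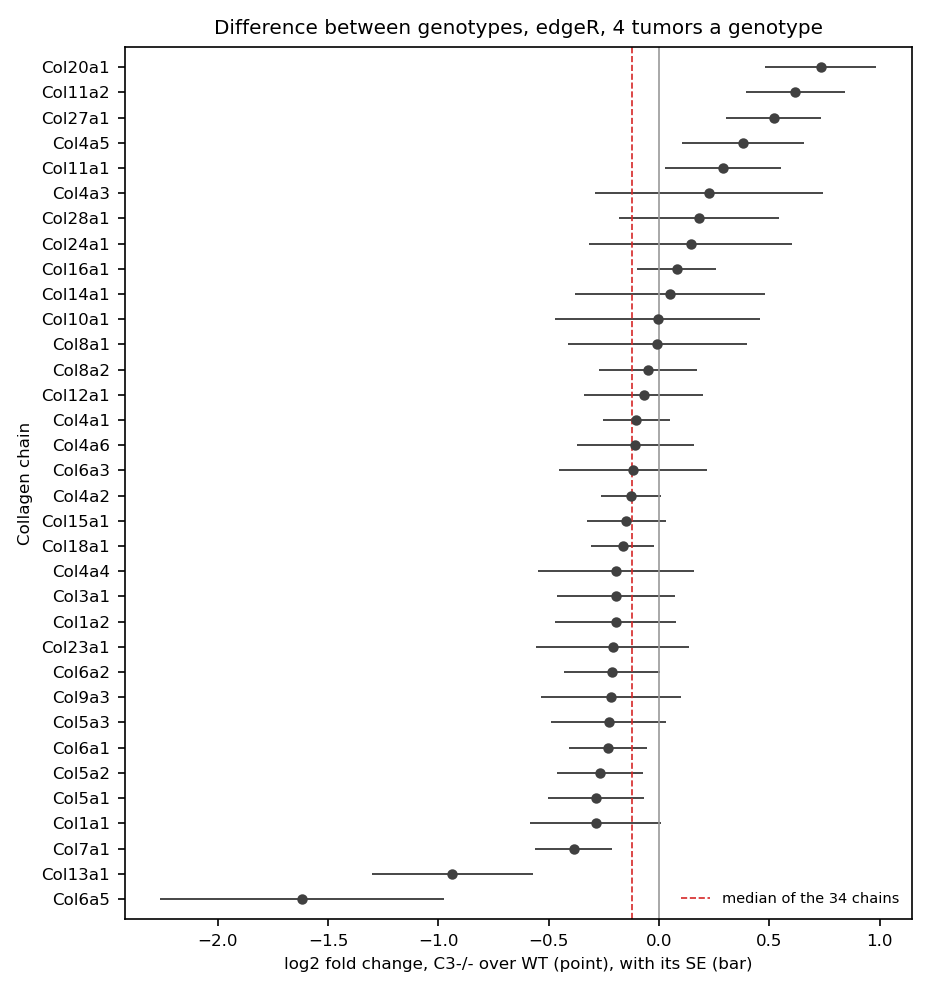
Difference between genotypes for the 34 collagen chains tested. Points are log2 fold changes of C3-/- over WT tumors (x axis) and bars are their SE from edgeR with 4 tumors a genotype, in rank order (y axis). The dashed line is the median of the chains, -0.12, and most bars cross or nearly reach 0, with Col6a5 at -1.62 and Col20a1 at 0.73 at the ends.

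The share of all counts that fell in collagen genes was 1.27%, 1.62%, 1.09% and 1.58% in WT tumors 1 to 4 and 1.28%, 0.873%, 1.11% and 1.72% in C3-/- tumors 1 to 4. C3-/- 2 was lowest and C3-/- 4 highest, so both ends of the range lay in 1 genotype. The means were 1.39% ± 0.253 and 1.25% ± 0.359 (SD, n = 4), a log2 ratio of -0.16, which is smaller than the spread within either genotype. Types I and III took 58.6%, 65.2%, 60.0% and 62.7% of the collagen counts in WT and 63.7%, 48.8%, 56.8% and 64.3% in C3-/-. Without them the collagen share was 0.529% ± 0.0671 in WT and 0.502% ± 0.0769 in C3-/-.

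Collagen needs a large set of helper proteins, and these genes were compared in the same fit. Of 76 genes in 7 lists, 72 were tested, and Tll2, Mep1a, Mep1b and Gp6 were not. In edgeR, 0 of 72 had an adjusted p below 0.05, as in DESeq2. At an unadjusted p below 0.05 there were 4 higher in C3-/- tumors and 2 lower, beside 3.03% and 2.07% of all genes. Groups did not overlap for 2 of the 72, Prelp and Tgm2, both higher in C3-/- tumors, beside 2.28% of all genes. In the lower direction there were 0, beside 1.45%. The median log2 fold change was -0.08, with 45 of 72 negative, beside 50.0% of all genes tested. Fibril organisation genes divided into 5 negative and 7 positive, and collagen receptors into 5 and 5. Cross-linking genes divided into 4 and 2, and the TGF-beta list into 7 and 4.

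Prolyl and lysyl hydroxylases stabilise the helix and prepare it for cross-linking, and P4hb, the shared subunit of the prolyl hydroxylases, was the most abundant of these 15 genes (308 to 435 FPKM). P4hb had a log2 fold change of -0.08 (SE 0.15), Plod1, a lysyl hydroxylase, -0.31 (SE 0.18), and P4ha2, a catalytic prolyl hydroxylase subunit, -0.45 (SE 0.27), and 10 of the 15 were negative. With single tumors left out P4ha2 ran from -0.59 to -0.07, and its highest level was 16.8 FPKM in WT 2. Among 11 chaperone and export genes 8 were negative, with Sparc, a collagen-binding matrix protein, at -0.27 (SE 0.23), and the prolyl isomerases Fkbp10 and Fkbp7 at -0.35 (SE 0.22) and -0.24 (SE 0.19). Sparc ranged from 265 to 531 FPKM and was lowest in C3-/- 2. Of 7 propeptide removal genes tested, 6 were negative, with the C-proteinase Bmp1 at -0.21 (SE 0.16), the N-proteinase Adamts14 at -0.44 (SE 0.38), and the proteinase enhancer Pcolce at 0.03 (SE 0.19). Adamts14 ran from -0.80 to -0.25 with single tumors left out. None of the genes of these 3 lists had an unadjusted p below 0.05 in edgeR.

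The cross-linking list held a gene on either side. Loxl2, a lysyl oxidase, had FPKM of 19.8, 28.2, 21.7 and 26.8 in WT and 15.6, 18.5, 17.3 and 19.7 in C3-/-, which edgeR fitted as -0.44 on the log2 scale (SE 0.14) at an unadjusted p of 0.0118 and adjusted p of 0.960. Tgm2, a transglutaminase, had 51.7, 55.9, 39.2 and 42.1 in WT and 70.4, 69.6, 61.6 and 56.6 in C3-/-, fitted by edgeR as 0.46 on the log2 scale (SE 0.15) at an unadjusted p of 0.0106 and adjusted p of 0.960. The Tgm2 groups did not overlap. Those of Loxl2 were close on FPKM, with the lowest WT tumor at 19.8 and the highest C3-/- tumor at 19.7, and overlapped on log2 CPM.

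Prelp, a small leucine-rich proteoglycan that links collagen to basement membranes, had the smallest p of the 72 genes. Its FPKM was 4.42, 5.58, 3.34 and 4.09 in WT and 6.77, 5.96, 6.72 and 9.15 in C3-/-, without overlap. In edgeR this was 0.72 on the log2 scale (SE 0.19), at an unadjusted p of 0.0040 and adjusted p of 0.933. In the same list, Fn1, fibronectin, had 202 to 319 FPKM and a log2 fold change of 0.01 (SE 0.18), and Comp, a fibril-binding protein of cartilage and tendon, had 0.47 (SE 0.36). With single tumors left out Comp ran from 0.075 to 0.65, and its highest level was 1.82 FPKM in C3-/- 1. Of the receptors, Itgb1, the integrin subunit common to the collagen-binding integrins, had -0.14 (SE 0.14), and Itga10, its partner in cartilage, had 0.51 (SE 0.22, edgeR unadjusted p of 0.0428 and adjusted p of 0.971) at 0.695 to 1.44 FPKM.

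In the TGF-beta list, the ligand Tgfb3 had FPKM of 33.7, 33.1, 37.5 and 29.0 in WT and 44.7, 38.9, 37.4 and 39.9 in C3-/-. WT 3 lay just above C3-/- 3, so the groups overlapped. Its log2 difference was 0.28 (SE 0.12), at an unadjusted p of 0.0391 and adjusted p of 0.971 in edgeR. The matrix protein Ccn2, a target gene of the pathway, had 214 to 364 FPKM and a log2 difference of -0.11 (SE 0.18).

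The chains also varied from tumor to tumor. The SD of log2 CPM over the 8 tumors had a median of 0.44 over the 34 tested chains, beside 0.31 over all genes tested. It was largest for Col6a5 (1.19), Col10a1 (0.79) and Col14a1 (0.75). Col10a1, a hexagonal network chain of growth cartilage, had counts of 69, 13, 51 and 137 in WT and 89, 97, 49 and 42 in C3-/-, and lies inside the gene Nt5dc1 on the opposite strand, which makes its count uncertain.

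Which chains varied with Col1a1 was tested over the 8 tumors for the 33 other chains, with exact two-sided permutation tests of log2 CPM and Benjamini-Hochberg adjustment over the 33. Pearson's r passed an adjusted p of 0.05 for 5 chains, and 25 of the 33 coefficients were positive. Neither count was made over all genes tested, so both stand without a background share. A genotype holds 4 tumors, too few for a coefficient of its own. Col1a2 was closest, with r = 0.977 (permutation p = 7.44e-05, adjusted p = 0.0025) and rho = 0.976 (permutation p = 0.00040, adjusted p = 0.0131). Col3a1 came next with r = 0.948 (permutation p = 0.00082, adjusted p = 0.0090) and rho = 0.905 (permutation p = 0.0046, adjusted p = 0.0753). The multiplexin Col15a1 had r = 0.927 (permutation p = 0.00077, adjusted p = 0.0090) and rho = 0.881 (permutation p = 0.0072, adjusted p = 0.0797).

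Col6a1 had r = 0.895 (permutation p = 0.0048, adjusted p = 0.0354) and rho = 0.714 (permutation p = 0.0576, adjusted p = 0.211). Col5a1 had r = 0.846 (permutation p = 0.0054, adjusted p = 0.0354) and rho = 0.857 (permutation p = 0.0107, adjusted p = 0.0884). By rho, only Col1a2 of these 33 chains passed. The tumors farthest from the median of Col1a1 were C3-/- 2 and WT 2, and without them r was 0.976 for Col1a2, 0.949 for Col3a1, 0.850 for Col15a1, 0.764 for Col6a1 and 0.743 for Col5a1.

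The count of chains that passed rested on single tumors. It was 0 without C3-/- 2, 1 without C3-/- 3, 2 without WT 2, 2 without C3-/- 4 and 3 without WT 4. Summed FPKM of the other fibroblast markers, without Col1a1 and Col3a1, was also lowest in C3-/- 2, at 72.3 beside 102 to 151 in the other 7 tumors, and its part in the coefficients was not tested.

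Among chains that did not pass, the basement membrane pair Col4a1 and Col4a2 had r of 0.723 and 0.705 with Col1a1 (permutation p = 0.0401 and 0.0503, adjusted p = 0.138 each). At the other end, r was -0.59 for Col10a1, -0.48 for Col20a1, -0.40 for Col27a1 and -0.36 for Col11a2, with adjusted permutation p of 0.299, 0.422, 0.546 and 0.552.

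Among all 16610 genes tested, Col1a2 had the highest r with Col1a1, Col3a1 the 5th and Col15a1 the 16th. Outside the collagens, the 10 genes of highest r over these 8 tumors were Tie1 (0.962), Angptl7 (0.952), Rrm1 (0.951), Syt7, Bhlhb9, Ripor2, Cd209b, Fbxl7, Rnf144a and Nqo2 (0.932). With 8 tumors and this many genes these are a ranking and not a test.

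**Figure D4:**
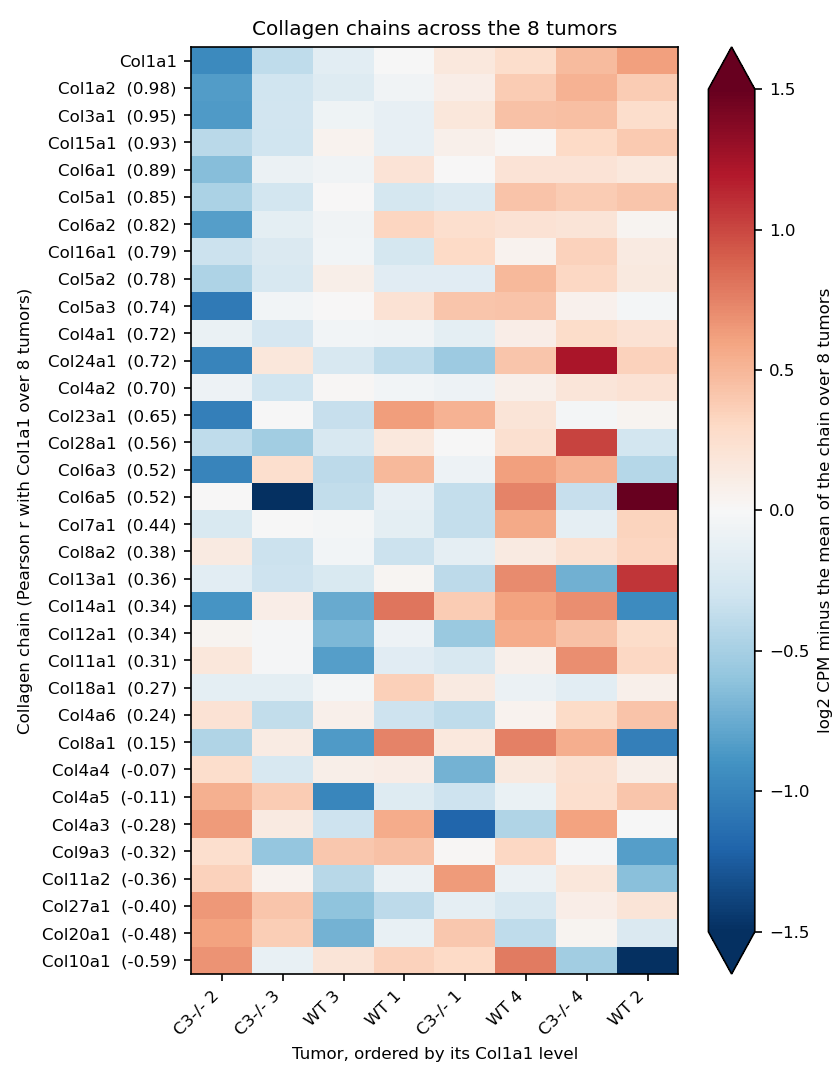
Level of each of the 34 tested chains in each tumor, as log2 CPM minus the mean of the chain (color). Columns are the 8 tumors in order of Col1a1, rows are chains in order of Pearson r with Col1a1, given in parentheses. The upper rows, Col1a1 to Col5a3, are blue at the left in C3-/- 2, and the lower rows, Col27a1, Col20a1 and Col10a1, are red there.

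The 150 bases upstream of the start of the canonical GENCODE transcript are shown for the 3 chains of types I and III, since Col1a2 and Col3a1 had the highest r with Col1a1 among the chains. For Col1a2 this transcript starts inside the gene as the deposited table bounds it (chr6:4504814-4541544), so its window lies within that gene. They were read from GRCm39 at chr11:94826900-94827049, chr6:4505343-4505492 and chr1:45350548-45350697, all on the plus strand, with capitals for CCAAT or TATAAA on either strand.
Col1a1: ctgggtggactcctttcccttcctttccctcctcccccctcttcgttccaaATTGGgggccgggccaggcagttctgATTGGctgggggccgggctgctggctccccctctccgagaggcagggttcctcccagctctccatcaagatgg
Col1a2: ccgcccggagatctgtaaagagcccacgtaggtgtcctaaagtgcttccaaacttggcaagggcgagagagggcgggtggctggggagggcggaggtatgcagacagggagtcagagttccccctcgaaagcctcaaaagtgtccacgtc
Col3a1: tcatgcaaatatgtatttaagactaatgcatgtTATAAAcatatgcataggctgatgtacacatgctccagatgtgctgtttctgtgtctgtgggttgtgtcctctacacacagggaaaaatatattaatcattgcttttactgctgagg

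The Col1a1 window held 2 matches to CCAAT, the Col1a2 window held neither motif, and the Col3a1 window held 1 match to TATAAA. In the 250 bases upstream of the canonical transcripts of all 21770 annotated protein-coding genes, CCAAT was present in 36.5%, the GC box GGGCGG in 36.3% and TATAAA in 11.9%, each on either strand. Of the 44 collagen genes, 15, 21 and 7 held them. A match is a run of letters and not a site in use.

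Chains of the same collagen type, 10 pairs, and the neighbouring genes Col3a1 and Col5a2, which belong to different types, were then compared as 11 pairs by the same permutation test with adjustment over the 11. This comparison was added after the values had been seen. Pearson's r passed for 7 pairs and Spearman's rho for 5 of them, the exceptions being the pairs with Col6a3. Col1a1 and Col1a2 had r = 0.977 (permutation p = 7.44e-05, adjusted p = 0.00082), and the ratio of their FPKM stayed between 3.04 and 3.87. Col4a1 and Col4a2, which form the common type IV helix, had r = 0.959 and rho = 0.976 (permutation p = 0.00015 and 0.00040, adjusted p = 0.00082 and 0.0022). Their ratio was 1.41, 1.43, 1.38 and 1.44 in WT and 1.36, 1.40, 1.48 and 1.52 in C3-/-, the narrowest range of the 11 pairs.

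These type IV genes lie head to head on chromosome 8 and overlap by 22 bases in the table. Col5a1 and Col5a2 had r = 0.950 (permutation p = 0.00030, adjusted p = 0.0011), and a ratio of 1.18 to 1.51. Col6a1 and Col6a2 had r = 0.949 (permutation p = 0.0046, adjusted p = 0.0101). Without C3-/- 2 and C3-/- 3, the tumors farthest from the median of Col6a1, r was 0.545, so this relation leaned on those tumors. Col6a3, the long chain of type VI, followed both less closely, with r of 0.786 to Col6a1 and 0.780 to Col6a2 (permutation p = 0.0132 and 0.0162, adjusted p = 0.0241 and 0.0255). By rho neither passed, with 0.762 and 0.595 (permutation p = 0.0368 and 0.132, adjusted p = 0.0674 and 0.182). Col3a1 and Col5a2, neighbours on chromosome 1 at a distance of 24614 bases, had r = 0.880 (permutation p = 0.0036, adjusted p = 0.0100).

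The other 4 pairs did not pass. Col8a1 and Col8a2 had r = -0.36 (permutation p = 0.363, adjusted p = 0.444), and their ratio ran from 3.58 to 19.4. Col11a1 and Col11a2 had r = 0.133 (permutation p and adjusted p = 0.768). Col4a5 and Col4a6, head to head on chromosome X at a distance of 1308 bases, had r = 0.287 (permutation p = 0.507, adjusted p = 0.557). Col4a3 and Col4a4, head to head at a distance of 71 bases on chromosome 1, had r = 0.759 (permutation p = 0.0370, adjusted p = 0.0508), on counts of 5 to 24 per tumor. Without C3-/- 2 the number of pairs that passed was 3.

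**Figure D5:**
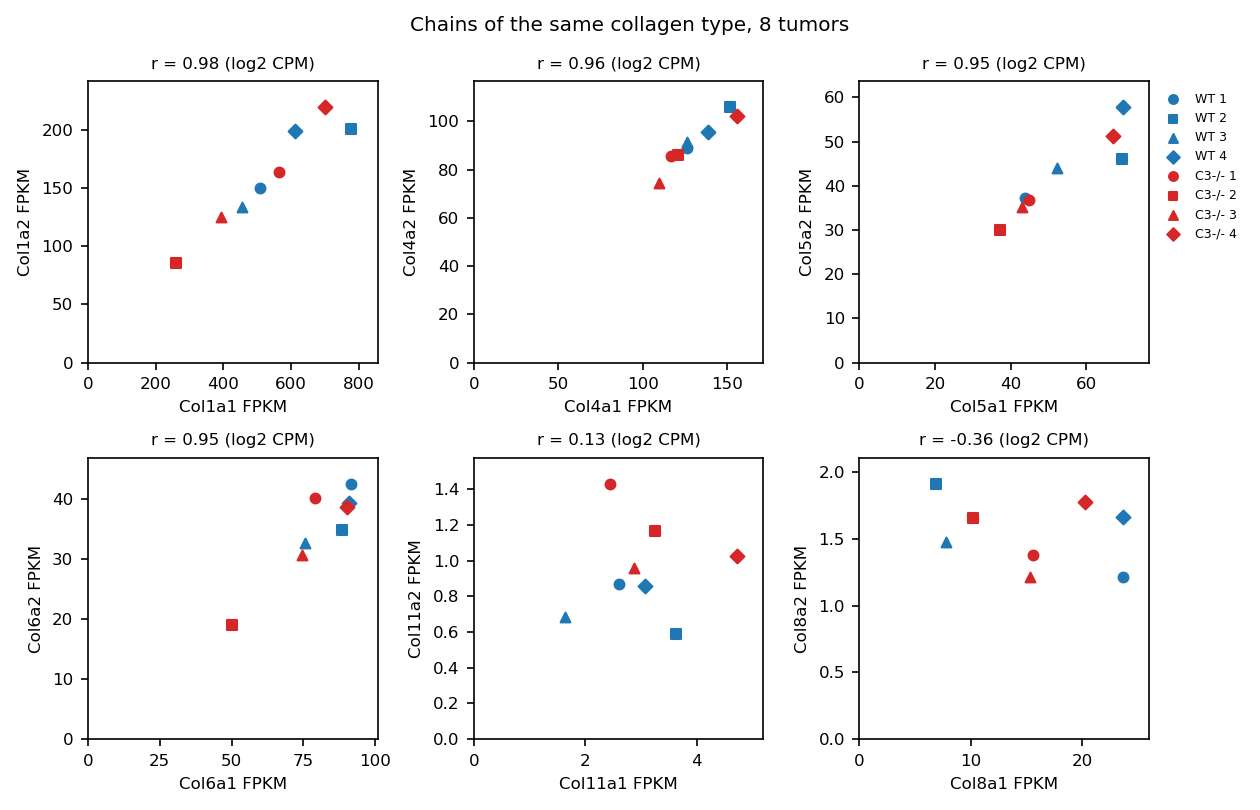
FPKM of a chain (x axis) against a chain of the same collagen type (y axis) in the 8 tumors, for 6 pairs. Blue is WT, red is C3-/-, and symbol shapes give the replicate number. The Col1a1, Col4a1, Col5a1 and Col6a1 panels lie near a line, with r of 0.977, 0.959, 0.950 and 0.949 on log2 CPM, whereas Col11a1 (r = 0.133) and Col8a1 (r = -0.36) do not.

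The tumors also differed in attached muscle, and some chains were ordered with it. For 3 of the 34 chains, Col6a3, Col8a1 and Col14a1, the 3 lowest tumors were the 3 with the fewest skeletal muscle transcripts, WT 2, WT 3 and C3-/- 2, beside 2.52% of all genes tested. Those tumors held Acta1, skeletal muscle actin, at 0.0485 to 0.341 FPKM, and the other 5 held it at 412 to 962. As the tumors fell into 2 separate sets of muscle content, no coefficient is given. The part of attached muscle in these 3 chains was not tested.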

How the data were processed

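RNA of KPC tumors from 4 WT and 4 C3-/- mice was analysed. The authors deposited raw counts per gene, aligned to mm39, in a table that also holds size-factor-normalized counts (a signal), FPKM and the authors' DESeq2 comparison (log2 fold changes and p-values, raw or adjusted), which was not used. The study's methods name STAR and HTSeq, whereas the submitters' processing notes list HISAT2 2.0.5 and DESeq2 1.20.0. The strand setting of counting is not given in the sources used here, so genes that overlap on opposite strands have uncertain counts. The authors' FPKM equalled the normalized count per gene length up to 1 constant, and was used for levels.

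The deposited counts (13.3 to 23.4 M per tumor) were tested with edgeR 4.0.16 in R 4.3.3 (filterByExpr with a minimum count of 10, TMM, quasi-likelihood test, Benjamini-Hochberg over 16610 genes, threshold 0.05), with no covariate, as the study names none. The SE is the absolute log2 fold change over the square root of F. The median biological coefficient of variation was 0.245. For correlations, log2 CPM was computed at prior count 2. Non-overlap of groups was judged on log2 CPM. DESeq2 1.42.0, limma 3.58.1 (voom, and log2 of FPKM plus 0.1 or 1), other filters, a block, tissue covariates and each tumor left out were alternatives. Scripts were tested on simulated data. No tumor was a repeat of another, since the lowest chi-square per gene between tumors was 14.8.

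The collagen members, companion lists and marker lists were chosen with earlier results of these data known. Values of every tumor were given for Col1a1, Col3a1, the chain of highest mean FPKM of each class, the 5 chains of smallest unadjusted p, any chain called by edgeR or DESeq2, and the 3 of largest SD, and from each companion list for the 2 genes of smallest p and the most abundant gene, in full or as ranges. An item that this rule would name is not reported here. Other chains were named for their class. Gene models came from GENCODE vM39, in which all 44 collagen identifiers were found. Protein sequences were not used here.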

Additional observations from a re-analysis of the deposited data

Results flagged for a closer look

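Within groups of 4 tumors, 4 of 92 sets of values held a tumor whose gap to its nearest neighbour divided by the range exceeded Dixon's 95% critical value for 4 samples, where chance gives about 4.6. Col18a1 was at 9.30 log2 CPM in C3-/- 1, beside 9.01 to 9.02 in the other 3 C3-/- tumors. Slc19a1 overlaps Col18a1 on the opposite strand. Col9a3, a FACIT chain, was at 1.38 log2 CPM in WT 2, beside 2.51 to 2.63 in the other WT tumors, with 33 counts there and 79 to 131 in the others. The FPKM ratio of Col4a3 to Col4a4 was 0.484 in C3-/- 1, beside 1.06 in each of the other C3-/- tumors, in which both genes happened to have equal counts (20, 12 and 20). C3-/- 1 held 5 and 11 counts of them. The FPKM ratio of Col5a1 to Col5a2 was 1.51 in WT 2, beside 1.18 to 1.21 in the other WT tumors.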

How the results depend on the processing

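In the 20 alternatives, 0 collagen chains and 0 companion genes were called, and the median log2 fold change of the chains stayed negative, from -0.23 to -0.01 with single tumors left out and from -0.17 to -0.10 otherwise. The log2 ratio of the collagen share was -0.35 to -0.02 with single tumors left out. The labels name no pairing of tumors by replicate number. Correlations of deviations of same-numbered tumors were -0.03, 0.49, -0.36 and 0.59, and 2 of these 4 pairs were best matches both ways. The replicate block gave 0 calls and a median of -0.14. Chains that varied with Col1a1 numbered 5, but 1 by Spearman's rho and 0 to 5 with single tumors left out. Pairs of chains that passed numbered 7, and 3 to 8 with single tumors left out. Of 699 values of 35 single genes, 655 kept their direction. The other 44 were of 8 genes (main values Col8a1 -0.01, Col10a1 -0.01, Col14a1 0.05, Col12a1 -0.07, Col23a1 -0.21, Fn1 0.01, Pcolce 0.03, P4hb -0.08). With acinar level as a covariate, Col8a1 was 0.10, Col23a1 0.0021, Col10a1 0.23 and Fn1 -0.16. With muscle level, Col14a1 was -0.18, Col10a1 0.0015 and Pcolce -0.0014. In the order limma-voom, limma on log2(FPKM + 0.1), limma on log2(FPKM + 1) and replicate block, Col8a1 was 0.17, 0.18, 0.15 and 0.18, Col10a1 0.094, 0.14, 0.033 and 0.082, Fn1 -0.00074, -0.0076, -0.0075 and -0.0020, and Pcolce -0.015, -0.017, -0.016 and -0.013. With single tumors left out, Col8a1 ran from -0.26 to 0.28, Col10a1 from -0.32 to 0.30, Col14a1 from -0.19 to 0.37, Col12a1 from -0.26 to 0.13, Col23a1 from -0.47 to 0.016, Fn1 from -0.10 to 0.12, Pcolce from -0.20 to 0.13 and P4hb from -0.15 to 0.03. The cause was not tested. Low counts limit Col4a3, Col4a4, Col6a5 and Col13a1 and the 10 chains not tested, and 4 tumors a genotype limit the rest.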

Other observations

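In the marker lists of cell types that may make or border collagen, 0 genes had an adjusted p below 0.05 in edgeR, and their values follow as descriptions. All 5 mesothelial genes had a negative log2 fold change, with a median of -0.91, and Upk3b, a urothelial and mesothelial surface protein, had FPKM of 0.687, 1.31, 1.12 and 1.36 in WT and 0.655, 0.360, 0.248 and 0.382 in C3-/-, with no overlap. Its log2 fold change was -1.43 (unadjusted p = 0.0025 and adjusted p = 0.933 in edgeR). Lrrn4, another mesothelial gene, had -1.30 (unadjusted p = 0.0056 in edgeR). Summed FPKM of the list was 158 to 182 in WT and 116 to 176 in C3-/-. The medians were -0.06 for 10 fibroblast genes tested, -0.17 for 7 myofibroblast and smooth muscle genes, 0.00 for 7 pericyte genes, -0.06 for 8 endothelial genes, -0.17 for 7 epithelial tumor genes, 0.17 for 10 skeletal muscle genes, 0.80 for 13 acinar genes, -1.04 for 5 adipocyte genes, -0.27 for 4 Schwann cell genes, -0.01 for 4 chondrocyte and tenocyte genes and 0.26 for 7 leukocyte genes. The positive acinar median did not reflect the C3-/- tumors alike: summed acinar FPKM was 1967 in C3-/- 1 and 36.0, 22.4 and 19.4 in the other 3, all 3 below the WT tumors, which had 500.1, 195, 329 and 165.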
